A study of Mus musculus with 10 samples.

Results

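The matrix metalloproteinases (Mmp), their tissue inhibitors (Timp) and the Adamts proteases were compared between dFLEx CDS sarcomas and KP sarcomas of the mouse. Members were the protein-coding genes whose symbol is Mmp, Timp or Adamts followed by a number, with the Adamts-like genes left out, and 46 of the 56750 features in the count table met that rule: 23 Mmp, 4 Timp and 19 Adamts genes. The dFLEx CDS +/- mice carry an HA-tagged CIC::DUX4 fusion allele in Rosa26 behind a CAG promoter, and the fusion is put in frame only after both Cre and FLP have acted. Plasmids for both recombinases were electroporated into the hind limb muscle, so the fusion is active in whichever muscle-resident cells took up both. The KP mice carry KRASloxP-STOP-loxP-G12D and p53fl/fl, lack the fusion, and gave the control sarcomas. The dFLEx mice were 6 to 12 weeks old at electroporation. The induction of the KP tumors, the ages of the KP mice, the ages at tumor collection and any treatment of the sequenced animals are not given in the sources used here. RNA from flash-frozen whole tumors was sequenced after depletion of ribosomal RNA, from 3 dFLEx tumors (170019, 170024 and 170025, 2 libraries each) and 2 KP tumors (3800 with 2 libraries and 3802 with 1), and the libraries of a tumor were summed. In whole tumors, fewer cells of a type and less RNA per cell cannot be told apart.

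Matrix metalloproteinases are zinc proteases that are made as inactive proenzymes and, once activated, cleave collagens, proteoglycans and other matrix proteins; Timp proteins bind them and block the active site. Adamts enzymes are secreted relatives that bind the matrix and mature procollagens or cut proteoglycans such as aggrecan. In growing bone, Mmp13 is known from hypertrophic chondrocytes and osteoblasts and Mmp9 from osteoclasts, and tumor stroma and infiltrating myeloid cells are common sources of both families.

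Depth and quality were unequal. Totals per library ran from 20503474 to 46302223 counts, and the lowest was that of 3802, the only library of its tumor. The transgene feature reached 105, 202 and 423 CPM (library-scaled counts, TMM factors applied) in 170019, 170024 and 170025, was at 0 counts in 3800 and had 6 counts in 3802, which is 0.244 CPM against a limit of 0.122 CPM for 3 counts. Olfactory and vomeronasal receptor genes, which should be silent, lay at 0.0844 RPKM in 3802 and at 0.000350 RPKM in 3800. In the dFLEx tumors they lay at 0.0118, 0.00918 and 0.000374 RPKM in 170019, 170024 and 170025. Levels also followed gene length: among protein-coding genes that averaged 1 CPM or more, 170025 was the highest dFLEx tumor for 12% of the 1707 genes of up to 2 kb and for 76.2% of the 6083 genes longer than 5 kb. In the same classes 3800 was above 3802 for 37.3% and 78.7%. A fit with each tumor's trend on length removed was therefore added after the data were seen. It is given beside some of the results it touches, not all.

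Of the 46 genes, 41 had enough counts to be tested. None passed an adjusted p of 0.05 in edgeR's quasi-likelihood test, where 45 of 24743 genes did (0.182%). At an unadjusted p under 0.05 there were 9 of the 41, of which 5 were higher and 4 lower in dFLEx, against 10.6% of all tested genes. Log2 fold changes are dFLEx over KP and are given ± SE. The median over the 41 was -0.16, beside -0.18 for all tested genes, with 18 above 0 and 23 below. Every dFLEx tumor was above every KP tumor for 8 of the 41 (19.5%, against 13.7% of all tested genes), and every dFLEx tumor was below for 3 (7.32%, against 11.7%) and for the untested Mmp24. With 3 tumors against 2 an exact permutation test of a single value cannot give a p below 0.2. Other fits of the same counts did call members. DESeq2 on tumor sums called 5 (Mmp13, Mmp9, Adamts16, Mmp10 and Adamts14) where it called 6.07% of all genes, limma-voom, fitted to libraries within tumors, called 3 (Mmp13, Mmp9 and Adamts14) beside 2.78%, and the fit without the length trend called Adamts14 alone beside 0.861%. When the duplicate libraries were treated as independent samples, edgeR called 11 (17.1% of all genes) and DESeq2 13 (19.6%), which counts each tumor's duplicates as separate replicates.

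**Figure D1:**
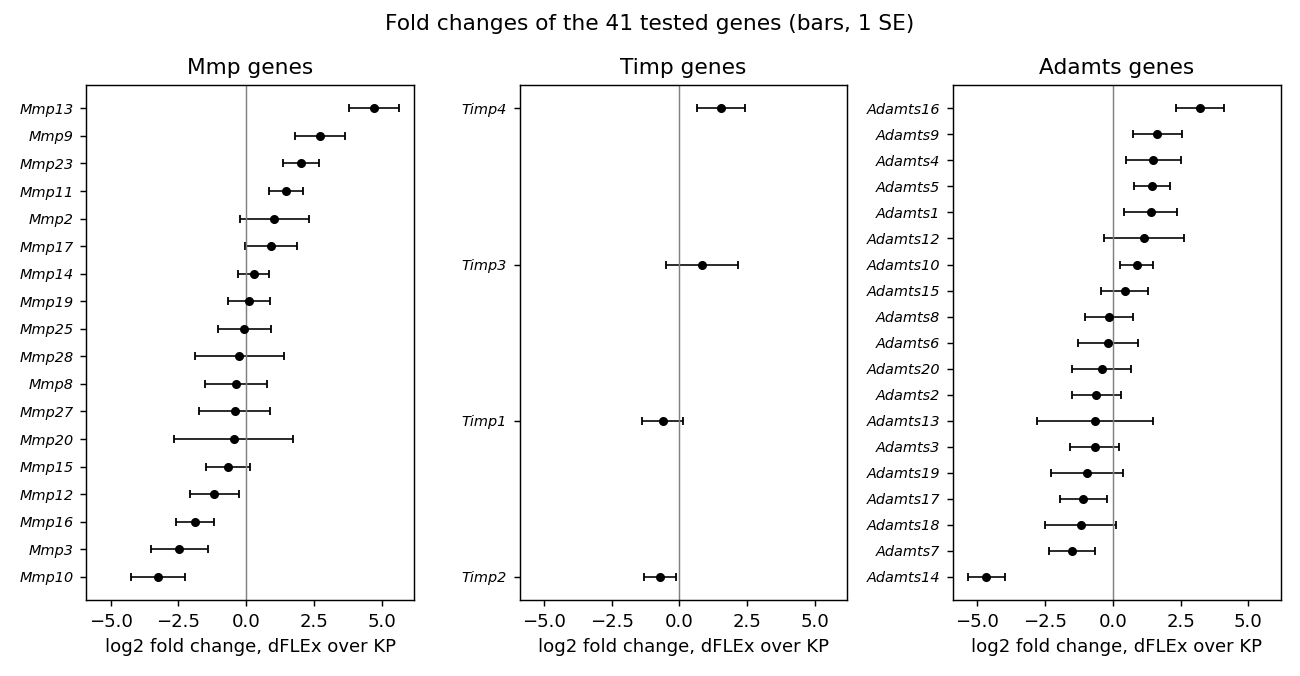
Log2 fold changes of the 41 tested genes, dFLEx over KP, in panels for the Mmp, Timp and Adamts genes, with bars of 1 SE from the edgeR fit. Mmp13 lies farthest to the right at 4.71 and Adamts14 farthest to the left at -4.66, and no gene passed the adjusted threshold.

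The sequences before the start sites of 5 genes are shown. Mmp13 and Adamts14 had the largest log2 fold changes in either direction, Mmp9 was the gelatinase that separated the groups, and Mmp10 and Mmp3 lie near Mmp13 on the chromosome but were lower on average in dFLEx tumors. Each line gives the 120 bases 5′ of the canonical start in GENCODE M39, read 5′ to 3′ on the gene's strand in GRCm39. Capitals mark the letters TGANTCA (an AP-1 site), AGGAAGT (an ETS site) or TATAAA. Mmp13 lies at chr9:7272394-7272513 (plus strand), Mmp9 at chr2:164790019-164790138 (plus), Mmp3 at chr9:7445702-7445821 (plus), Mmp10 at chr9:7502233-7502352 (plus) and Adamts14 at chr10:61109233-61109352 (minus).
Mmp13: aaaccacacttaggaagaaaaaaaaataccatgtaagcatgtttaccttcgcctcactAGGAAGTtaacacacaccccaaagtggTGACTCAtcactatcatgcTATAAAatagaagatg
Mmp9: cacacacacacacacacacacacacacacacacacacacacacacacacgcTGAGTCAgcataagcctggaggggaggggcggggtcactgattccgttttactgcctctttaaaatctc
Mmp3: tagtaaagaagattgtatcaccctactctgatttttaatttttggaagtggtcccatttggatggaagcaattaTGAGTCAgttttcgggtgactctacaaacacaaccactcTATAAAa
Mmp10: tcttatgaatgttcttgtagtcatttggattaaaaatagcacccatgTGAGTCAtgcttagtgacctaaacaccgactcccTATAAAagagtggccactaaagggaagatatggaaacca
Adamts14: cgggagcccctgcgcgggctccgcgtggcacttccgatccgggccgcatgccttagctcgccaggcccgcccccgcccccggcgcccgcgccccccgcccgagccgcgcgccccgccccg

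The AP-1 letters stood in the 250 bases before the start of 12 of the 46 genes (both strands, 1 place each counted once, since the letters read nearly alike on both strands), against 6.19% of 21601 protein-coding genes. TATAAA stood in 12 of the 46, against 11.9% of all. The ETS letters searched were AGGAAGT and 2 longer forms, and they stood in 5 of the 46 (Mmp7, Mmp8, Mmp13, Timp1 and Timp4) against 9.56%. The CIC octamer was found only before Adamts6, against 3.85% of all promoters. Mmp13 and Mmp9, which were higher in dFLEx tumors, and Mmp3 and Mmp10, which were lower on average, thus shared the AP-1 letters, and Adamts14 held none of the motifs in its window. The canonical start of Mmp9 lies inside the longer gene model of the count table, and a match of letters is not evidence of binding.

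Among the collagenases, which make the first cut in fibrillar collagen, Mmp13 (ENSMUSG00000050578, chr9:7272514-7283331) carried nearly all of the message. Mmp13 stood at 460, 559 and 125 CPM in 170019, 170024 and 170025 and at 9.42 and 19.7 CPM in KP tumors 3800 and 3802. The groups did not overlap, and their closest tumors were 6.36-fold apart. The means were 381 ± 228 CPM (SD, n = 3) and 14.5 ± 7.25 CPM (SD, n = 2), and the log2 fold change was 4.71 ± 0.92 (adjusted p = 0.109). It stayed between 4.34 and 5.36 when each tumor was left out in turn, and was 4.30 without the length trend (adjusted p = 0.0795). The other collagenases were low. Mmp8, the neutrophil collagenase, ran from 0.277 to 1.22 CPM over the 5 tumors with overlapping groups. Mmp1a had 46 counts, all in 3800, and Mmp1b had none in any tumor, so that neither was tested.

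Of the gelatinases, which cut denatured and basement membrane collagen, Mmp9 and Mmp2 took turns as the more abundant. Mmp9 (ENSMUSG00000017737, chr2:164782700-164797770) was at 822, 523 and 249 CPM in 170019, 170024 and 170025 and at 25.9 and 136 CPM in 3800 and 3802. All dFLEx tumors were above both KP tumors, by 1.83-fold at the closest pair. The log2 fold change was 2.71 ± 0.91 (adjusted p = 0.317), and it ran from 2.12 without 3800 to 4.38 without 3802. It was 2.34 with the length trend removed (adjusted p = 0.378). Mmp2 did not separate the groups. It was at 30.2, 59.5 and 257 CPM in the dFLEx tumors and 107 and 5.36 CPM in 3800 and 3802, highest in 170025 and 3800, and its log2 fold change of 1.04 ± 1.28 (adjusted p = 0.899) turned to -0.32 without 170025. The duplicates of 170019 differed for Mmp2 (43.4 and 18.3 CPM), and 25.5% of its exonic bases are shared with Gm45472, whose reads are not counted for either gene. Per length, Mmp2 passed Mmp9 in 170025 (76.2 against 70.3 RPKM) and in 3800 (31.8 against 7.31 RPKM), and Mmp9 led in the other three tumors.

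**Figure D2:**
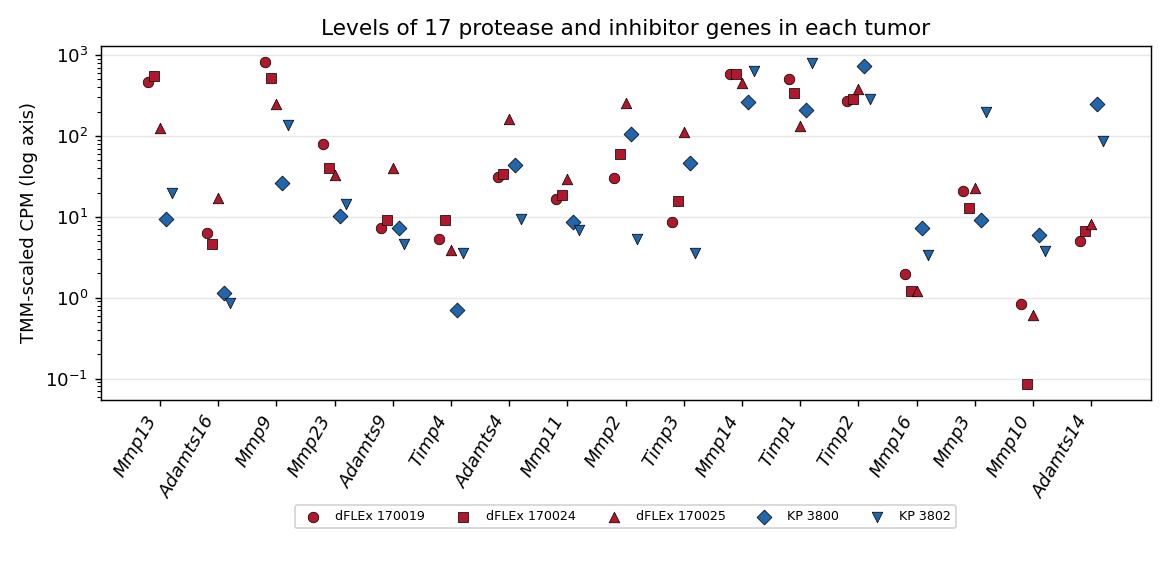
TMM-scaled CPM (log axis) of 17 genes in each of the 5 tumors, dFLEx in red and KP in blue, ordered by log2 fold change. The red symbols lie above the blue for Mmp13, Mmp9, Mmp23, Mmp11, Timp4 and Adamts16 and below for Mmp10, Mmp16 and Adamts14, while Mmp2, Timp3 and Adamts4 are highest in 170025 and second highest in 3800.

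The stromelysins, which cut proteoglycans and activate other proenzymes, went different ways. Mmp10 was at 0.846, 0.0867 and 0.605 CPM in the dFLEx tumors and 5.90 and 3.82 CPM in KP. The dFLEx values rest on 34, 5 and 48 counts, and the duplicates of 170024 were at 0.155 and 0 CPM. The log2 fold change was -3.25 ± 0.99 (adjusted p = 0.260) and the groups did not overlap. Mmp3 was at 21.1, 12.9 and 22.6 CPM in the dFLEx tumors, 9.27 in 3800 and 199 in 3802. Its log2 fold change of -2.47 ± 1.04 (adjusted p = 0.460) rested on 3802 and was 1.04 without that tumor. Mmp11, known from stromal fibroblasts of carcinomas, had the opposite order, with 16.6, 18.5 and 29.5 CPM in dFLEx and 8.73 and 6.87 CPM in KP (log2 fold change 1.46 ± 0.62, adjusted p = 0.460). The groups did not overlap for Mmp11, and the closest tumors were 1.90-fold apart. Mmp12, the macrophage elastase, was at 19.5, 3.00 and 3.30 CPM in dFLEx and 15.9 and 23.1 CPM in KP, and the groups overlapped through 170019. Mmp7, matrilysin, had 24 counts in 170019, 6 in 170024 and none elsewhere.

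Membrane-type enzymes act at the cell surface, and Mmp14, which activates pro-Mmp2 together with Timp2, was the main one in every tumor. Mmp14 stood at 578, 590 and 456 CPM in dFLEx and 264 and 628 CPM in KP. The ranges overlapped, the log2 fold change was 0.28 ± 0.58 (adjusted p = 0.945), and it turned negative on library totals (-0.06). Mmp16 was low and separated, at 1.94, 1.21 and 1.21 CPM in dFLEx and 7.34 and 3.41 CPM in KP (log2 fold change -1.89 ± 0.71, adjusted p = 0.385). Without the length trend that difference was -1.51. Mmp15, Mmp17 and Mmp25 overlapped between groups with log2 fold changes of -0.66, 0.91 and -0.07, and Mmp24 had at most 14 counts in a tumor and was not tested.

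Of the 6 remaining Mmp genes Mmp23, which is anchored in the membrane by its N-terminus, was the abundant one. It was at 78.6, 39.8 and 32.6 CPM in dFLEx and 10.4 and 14.4 CPM in KP, with every dFLEx tumor at least 2.26-fold above both KP tumors. The log2 fold change was 2.02 ± 0.68 (adjusted p = 0.314) and stayed between 1.49 and 2.29 with each tumor left out. It was 1.63 with the length trend removed (adjusted p = 0.219). Mmp19 ran from 4.01 to 13.6 CPM with overlap. Mmp28 had no count in 3802 and 11.1 CPM in 3800, and its log2 fold change was -0.25. Mmp20, the enamel protease, Mmp21 and Mmp27 stayed under 1 CPM in every tumor.

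Of the Mmp genes, 10 form 1 cluster on chromosome 9 that spans 427 kb (chr9:7272514-7699586) and holds no other protein-coding gene. Along the chromosome the order is Mmp13, Mmp12, Mmp1b, Mmp3, Mmp1a, Mmp10, Mmp8, Mmp27, Mmp20 and Mmp7, and all but Mmp1b lie on the plus strand. Neighbours in the cluster did not share a pattern. Mmp13 took 91.6%, 96.2% and 77.2% of the cluster's summed RPKM in the dFLEx tumors and 23.6% in 3800, where Mmp3 took 34.5%, Mmp10 23.0% and Mmp12 14.8%. In 3802 Mmp3 was at 111 RPKM, beside 7.36 RPKM for Mmp13. Mmp10, higher in KP, lies in the same cluster as Mmp13, higher in dFLEx.

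**Figure D3:**
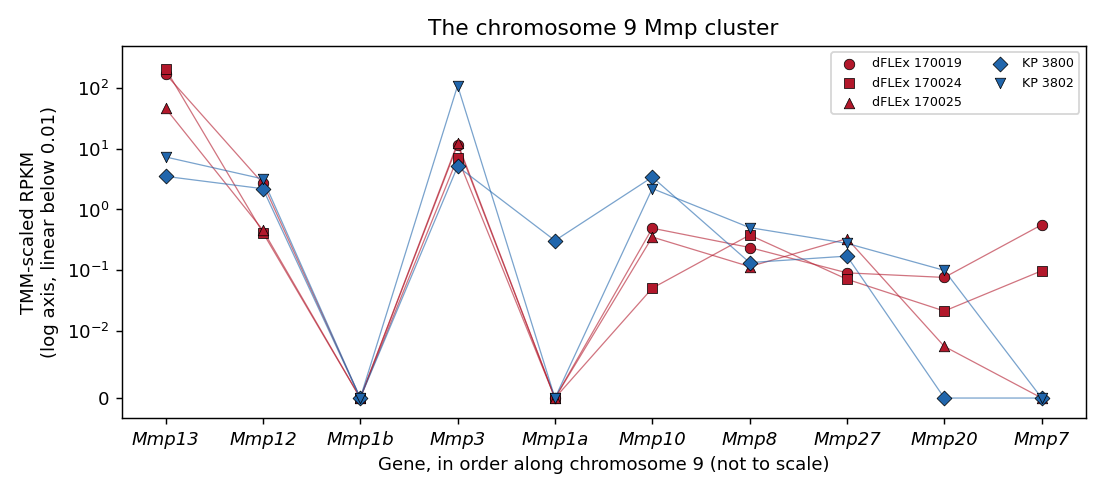
TMM-scaled RPKM (log axis, linear below 0.01) of the 10 clustered Mmp genes in chromosomal order, 1 line per tumor, dFLEx in red and KP in blue. Red lines are above blue at Mmp13 and below at Mmp10, and the high point at Mmp3 is KP tumor 3802 with 111 RPKM.

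The 4 Timp inhibitors were led by Timp1 and Timp2, and neither separated the groups. Timp1 was at 505, 340 and 132 CPM in dFLEx and 210 and 795 CPM in KP (log2 fold change -0.62 ± 0.77, adjusted p = 0.899), and the sign turned to 0.66 without 3802. Timp2 was at 268, 284 and 381 CPM in dFLEx and 725 and 289 CPM in KP (log2 fold change -0.70 ± 0.59, adjusted p = 0.838), and turned to 0.27 without 3800. Of the 4, Timp2 varied least within dFLEx, by 1.43-fold from lowest to highest.

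Timp3, which binds the matrix and inhibits Adamts enzymes as well, followed the same tumors as Mmp2. It was at 8.66, 15.8 and 111 CPM in dFLEx and 46.9 and 3.58 CPM in KP, and its log2 fold change of 0.84 ± 1.32 (adjusted p = 0.924) was -1.03 without 170025. Reads over 21.3% of its exonic bases, which lie over Syn3 exons, are not counted. Timp4 was the lowest, at 5.37, 9.09 and 3.92 CPM in dFLEx and 0.712 and 3.54 CPM in KP. All dFLEx tumors were above both KP tumors for Timp4, but only 1.11-fold at the closest pair, and the log2 fold change was 1.54 ± 0.88 (adjusted p = 0.667).

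Summed over the families, the balance of inhibitor to protease message differed between the groups without overlap. The Mmp genes summed to 570, 512 and 326 RPKM in dFLEx and 125 and 285 RPKM in KP, and the Timp genes to 639, 459 and 261 RPKM in dFLEx and 428 and 970 RPKM in KP. The ratio of Timp to Mmp was 1.12, 0.896 and 0.802 in the dFLEx tumors and 3.43 and 3.40 in the KP tumors. The families' makeup differed too. Mmp9 and Mmp13 together were 71.0%, 69.6% and 36.0% of the Mmp sum in dFLEx and 8.69% and 16.0% in KP. In KP tumors 3800 and 3802 Mmp14 was 35.5% and 36.9% of that sum, and Mmp3 was 4.13% and 38.8%. Mmp3 thus had the largest share in 3802. Without the length trend the ratios were 0.675, 0.776 and 1.24 in dFLEx and 5.23 and 2.30 in KP. These sums are message per kilobase, not protein or activity.

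**Figure D4:**
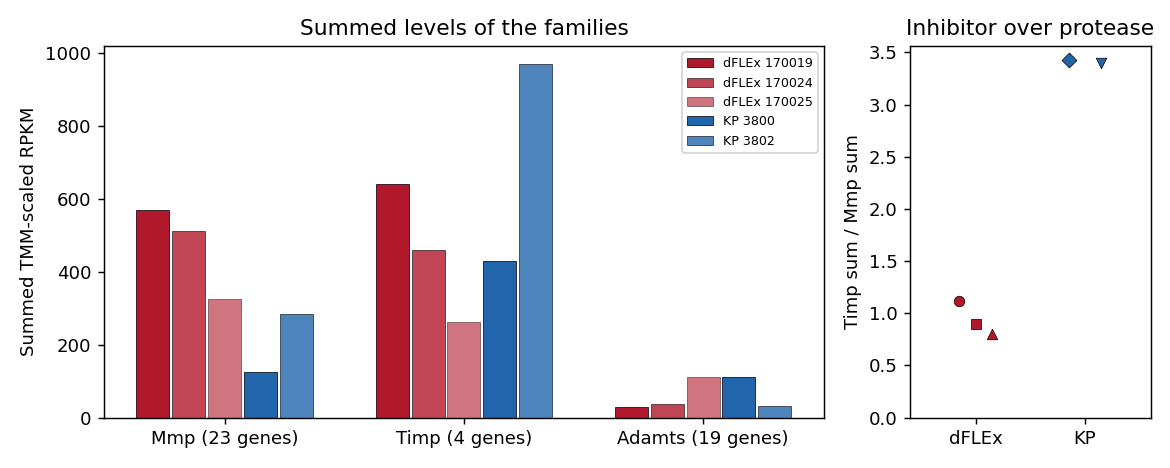
Summed TMM-scaled RPKM of the Mmp, Timp and Adamts genes in each tumor (bars, left) and the ratio of the Timp to the Mmp sum (points, right), dFLEx in red and KP in blue. The 3 dFLEx ratios lie between 0.802 and 1.12 and both KP ratios lie near 3.4.

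The Adamts genes summed to far less than the Mmp or Timp genes in dFLEx, at 29.4, 38.3 and 112 RPKM, and to 112 and 33.1 RPKM in KP. All 19 were tested, 8 with a log2 fold change above 0 and 11 below. Tumor 170025 was the highest dFLEx tumor for 14 of the 19, and for 25 of the 41 tested genes of all 3 families, against 38.5% of all tested genes. Gene length went with this: of the 24 tested members over 5 kb, 17 were highest in 170025, where 76.2% of protein-coding genes of that length were. With the length trend removed 22 of the 41 were highest in 170025, against 34.5% of all tested genes. The part of RNA quality in this tumor's levels was not tested.

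The largest difference in the family was in the procollagen N-proteinases, which trim fibrillar procollagens so that they can assemble. Adamts14 (ENSMUSG00000059901, chr10:61032891-61109217) was at 5.05, 6.64 and 8.10 CPM in the dFLEx tumors and at 246 and 86.6 CPM in 3800 and 3802. The lower KP tumor was 10.7-fold above the highest dFLEx tumor. The means were 6.60 ± 1.53 CPM (SD, n = 3) and 167 ± 113 CPM (SD, n = 2), and the log2 fold change of -4.66 ± 0.68 (adjusted p = 0.0626) was the closest to the threshold among the 41. It passed in 13 of 18 alternative fits, with a log2 fold change from -5.21 to -3.55. Those 13 include the fits that took duplicate libraries as independent samples, where DESeq2 gave the lowest adjusted p of 3.2e-45. DESeq2 on tumor sums gave 1.7e-08. Adamts14 did not pass in edgeR without 170019, 170024 or 170025 (adjusted p = 0.225, 0.223 and 0.0968). Nor did it pass in edgeR on library totals (adjusted p = 0.0611) or without 3800, its highest tumor. Without 3800 only 3802 remained in KP and the log2 fold change was -3.55. In the fit without the length trend it was -4.64 (adjusted p = 0.0160). Adamts2, which does the same work on type I procollagen, did not follow: it was at 30.2, 42.6 and 116 CPM in dFLEx and 167 and 24.5 CPM in KP (log2 fold change -0.61, adjusted p = 0.921). Per length, Adamts14 was the leading member of the class in both KP tumors (47.4 and 16.7 RPKM) and Adamts2 in all 3 dFLEx tumors. Adamts3 stayed between 0.572 and 1.38 CPM.

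The proteoglycanases cut aggrecan and versican. Adamts4 was at 31.0, 34.2 and 162 CPM in dFLEx and 44.1 and 9.51 CPM in KP (log2 fold change 1.5 ± 1.01, adjusted p = 0.768). Adamts9 was at 7.26, 9.24 and 39.7 CPM in dFLEx and 7.35 and 4.59 CPM in KP (log2 fold change 1.65 ± 0.90, adjusted p = 0.642). Both overlapped between groups, both were highest in 170025, and without that tumor the log2 fold changes were 0.29 and 0.46. Adamts5, the other main aggrecanase, did separate the groups, at 36.0, 40.2 and 66.1 CPM in dFLEx and 10.9 and 23.6 CPM in KP (log2 fold change 1.46 ± 0.66, adjusted p = 0.504). Adamts1 ran from 22.4 to 142 CPM in dFLEx and from 10.3 to 41.7 CPM in KP. Adamts8, Adamts15 and Adamts20 had log2 fold changes of -0.14, 0.44 and -0.41 with overlapping groups.

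Among the other Adamts genes, Adamts16 separated the groups most. It was at 6.24, 4.63 and 17.3 CPM in dFLEx and 1.16 and 0.853 CPM in KP, with 4.01-fold between the closest tumors. The log2 fold change was 3.22 ± 0.87 (adjusted p = 0.206), and 2.42 without 170025. It was 3.07 with the length trend removed (adjusted p = 0.0903). Adamts10, which binds fibrillin, was higher in all dFLEx tumors by a small margin, at 50.1, 55.6 and 71.6 CPM against 44.3 and 19.6 CPM (log2 fold change 0.89 ± 0.61, adjusted p = 0.777). Adamts10 is on the list of consensus CIC::DUX4 target genes that the study used. The COMP-cleaving Adamts7 and Adamts12 had log2 fold changes of -1.50 and 1.16 with overlapping groups, and Adamts12 was at 76.1 CPM in 170025 against 4.05 and 8.36 CPM in the other dFLEx tumors. Adamts13, which cuts von Willebrand factor in plasma and is made mainly in the liver, had at most 11 counts in a tumor.

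In all, 13 of the 46 genes stayed under 3 CPM in every tumor (Mmp1a, Mmp1b, Mmp7, Mmp8, Mmp20, Mmp21, Mmp24, Mmp27, Adamts3, Adamts13, Adamts18, Adamts19 and Adamts20). Of these, 12 lay within 5 times the rate of the silent receptor genes in 3802, against 5 in 3800. Genes with no count are included: Mmp1a, Mmp1b and Mmp7 in 3802, and all 5 in 3800. In 3802 the counts of the others among the 12 were thus near its background. Of the 13, 8 were highest in 3802, beside 59.3% of all tested genes under 3 CPM.

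The genes that act with these proteases were compared next, from 5 lists of activators, inhibitors, other proteases, substrates and Adamts-like proteins. Only aggrecan (Acan) passed an adjusted p of 0.05, 1 of 18 substrates. Acan was at 65.0, 94.8 and 82.4 CPM in dFLEx and 0.228 and 0.203 CPM in KP (log2 fold change 8.52 ± 0.82, adjusted p = 0.0248). Col2a1, the main collagen of cartilage and a substrate of Mmp13, was at 282, 528 and 1636 CPM in dFLEx and 0.618 and 1.87 CPM in KP (log2 fold change 9.38 ± 1.32, adjusted p = 0.0521). Of the 18 substrates, 14 had a log2 fold change above 0 and 4 below. Without overlap, 6 lay above and 0 below, beside 13.7% and 11.7% of all tested genes.

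Of the 9 other inhibitors, 6 had every dFLEx tumor above every KP tumor and 2 had every one below (13.7% and 11.7% of all tested genes), and none passed. A2m, a broad protease trap of plasma, was at 60.3, 43.8 and 66.4 CPM in dFLEx and 0.134 and 1.18 CPM in KP (log2 fold change 6.49 ± 1.15, adjusted p = 0.0909). Serpinb2, which inhibits urokinase, had a log2 fold change of -5.04 ± 1.54 (adjusted p = 0.262), but 3800 alone was high, at 23.3 CPM. Reck, a membrane-anchored inhibitor of several Mmp enzymes, was at 11.7, 12 and 24.0 CPM in dFLEx against 3.06 and 1.87 CPM.

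Of the 10 tested activators and cofactors, 3 lay above and 3 below without overlap, beside the same 13.7% and 11.7% of all tested genes, and none passed. St14, matriptase, was at 34.9, 42.7 and 39.9 CPM in dFLEx and 0.927 and 5.93 CPM in KP (log2 fold change 3.52 ± 0.93, adjusted p = 0.201). Pcsk6, a proprotein convertase, was at 3.86, 8.36 and 61.4 CPM in dFLEx and 3.73 and 1.67 CPM in KP (log2 fold change 3.18 ± 1.29, adjusted p = 0.428), so that 170025 alone was high and the closest tumors barely differed. Plau, urokinase, went the other way, with 53.6, 86.8 and 96.2 CPM against 819 and 182 CPM. The 6 Adamts-like genes lay between log2 fold changes of -0.56 (Adamtsl1) and 0.23 (Adamtsl3).

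Of the 16 other matrix proteases tested, 5 had a log2 fold change above 0 and 11 below, and none passed. Without overlap, 2 lay above and 6 below, beside the same 13.7% and 11.7% of all tested genes. Cathepsin K (Ctsk), the collagen-cutting protease of osteoclasts, was at 1570, 947 and 402 CPM in dFLEx and 18.8 and 128 CPM in KP (log2 fold change 3.73 ± 1.05, adjusted p = 0.222). Adam8 had a log2 fold change of -2.55 ± 0.84 (adjusted p = 0.309), with 91.6 CPM in 3800.

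Some markers of other cell types kept the tumor order of Mmp9 or, within dFLEx, of Mmp13, and others did not. The 5 tumors kept the order of Mmp9 (170019, 170024, 170025, 3802, 3800) in Ctsk and in 4 of 6 osteoclast markers, Acp5, Ocstamp, Dcstamp and Oscar. For genes of 1 kb the trend on length ran in the same order within each group. It was 0.77, 0.30 and -0.68 (log2) in 170019, 170024 and 170025, and 0.18 and -0.67 in 3802 and 3800. At 5 kb it was -0.30, -0.02 and 0.45, and -0.54 and 0.37. The part of gene length in the shared order was not tested. The 6 osteoclast markers summed to 475, 296 and 120 CPM in dFLEx and 24.0 and 68.4 CPM in KP. Atp6v0d2, a subunit of the osteoclast proton pump, was at 17.8, 22.1 and 16.4 CPM against 0.940 and 1.67 CPM, while the defining calcitonin receptor gene Calcr stayed between 0.0269 and 0.813 CPM and was highest in 3802. The neutrophil markers, another known source of Mmp9, were highest in 170024 (85.9 CPM summed) and 3802 (38.6 CPM) and lowest in 3800 (1.75 CPM), and the 8 macrophage markers summed to between 1066 and 1261 CPM in dFLEx and to 2624 and 5250 CPM in KP.

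Mmp13 had the same tumor order as Ibsp and Sp7, markers of hypertrophic chondrocytes and osteoblasts, within the dFLEx tumors. Ibsp was at 235, 350 and 45.4 CPM and Sp7 at 5.03, 9.17 and 4.01 CPM there, and both were under 1 CPM in KP. Of that list of 6, Alpl passed the test (log2 fold change 6.19 ± 0.83, adjusted p = 0.0480), and Col10a1, the defining collagen of hypertrophic chondrocytes, stayed between 0.366 and 2.32 CPM. Runx2, a transcription factor of both cell types, did not follow Mmp13: it was at 8.93, 14.8 and 30.2 CPM in dFLEx and 57.0 and 6.79 CPM in KP (log2 fold change -0.83 ± 0.93, adjusted p = 0.890). Bglap, osteocalcin, was at 2.05 CPM in 170024 and under 1 CPM elsewhere. Markers of skeletal muscle, the tissue electroporated in the dFLEx mice, also differed. The 6 myocyte markers summed to between 8619 and 35750 CPM in dFLEx and to 1140 and 4564 CPM in KP. The site of the KP tumors is not given in the sources used here. The part of these cell types in the protease levels was not tested.

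**Figure D5:**
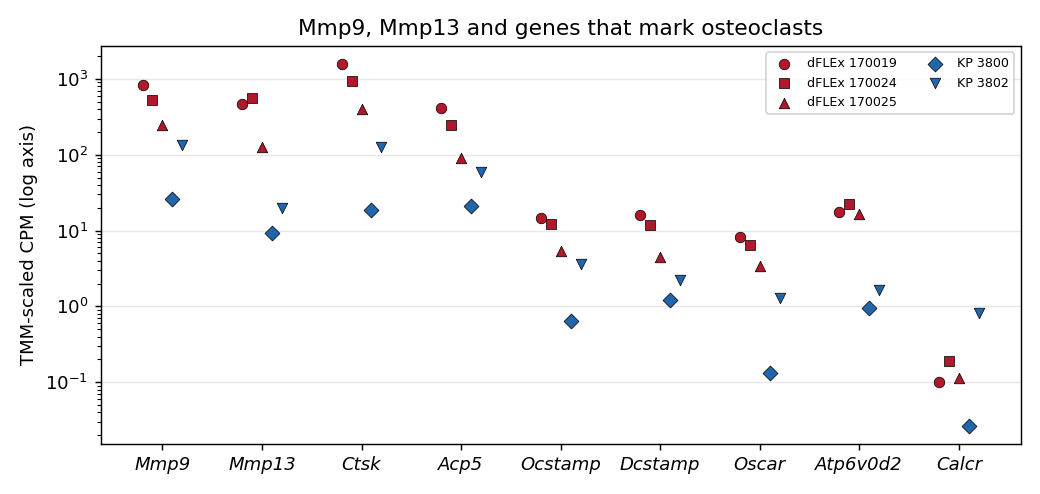
TMM-scaled CPM (log axis) of Mmp9, Mmp13, Ctsk and the 6 osteoclast markers in each tumor, dFLEx in red and KP in blue. Red symbols lie above blue for every gene but Calcr, which is near the bottom at 0.0269 to 0.813 CPM.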

How the data were processed

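Per the labels, the authors made rRNA-depleted paired-end libraries, trimmed reads with Trimmomatic (0.39) and aligned them with STAR (2.7.10a). They deposited raw counts per gene from featureCounts (Subread 2.0.3, per the file headers) on GRCm39 with the CIC::DUX4 construct added. Mates were counted separately, without strand, and reads over several genes or places were left out, so overlapping genes lose reads and counting error exceeds what totals imply. The table used here has columns for 9 libraries of the 10 in the labels; library 2 of tumor 3802 is not analysed here.

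Symbols came from GENCODE M39 (56017 of 56750 features). Counts were summed per tumor, filtered with filterByExpr, scaled by TMM and tested with edgeR (4.0.16) glmQLFTest, and p-values were adjusted over all tested genes (Benjamini-Hochberg). SE is the absolute log2 fold change over the root of F. Levels are TMM-scaled CPM, or RPKM where genes are compared. A count of 3 corresponds to 0.0378 to 0.122 CPM, for counting error only. The script was tested on simulated data.

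Members and lists were chosen with earlier results of these data known. Values in every tumor are given for the Timp genes, the 10 members highest in RPKM, the 10 with the largest log2 fold change, and those whose groups did not overlap at an unadjusted p under 0.05. Of the related lists, the genes that passed and the 2 largest changes are given. Adamts5, Adamts10, Adamts2, Adamts12, Mmp12, Plau and Reck are among the further genes named after their values were seen, as are the markers printed. Alternatives were DESeq2 (1.42.0), limma (3.58.1), other scalings and filters, libraries as replicates and each tumor left out. First-minus-second library differences correlated between -0.0134 and 0.0930 over 6 pairs of tumors, so duplicate numbers did not pair samples.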

Additional observations from a re-analysis of the deposited data

How the results depend on the processing

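The number of genes called moved with the fit, from 45 in the main test to 80 for genes averaging 1 CPM or more, 213 with the length trend removed, 543 in limma-voom, 880 with no filter on low counts, 1388 in DESeq2 on tumor sums, 3344 and 4815 with libraries as independent samples in edgeR and DESeq2, and 2476 in edgeR with the duplicate number as a block. The 45 were 25 higher and 20 lower, against 14 and 20 on library totals and 17 and 33 by upper quartile. Protease and inhibitor genes called were 0 in the main test and on library totals. They were 1, each time Adamts14, with DESeq2 size factors, upper quartile scaling, an average of 1 CPM or more, the first library only, the receptor background subtracted or the length trend removed, and 3, 4, 5, 11 and 13 in limma-voom, without a filter, in DESeq2 on tumor sums, and with independent libraries in edgeR and DESeq2. With the duplicate number as a replicate block 8 were called. The pairing check gave no sign that equal numbers pair libraries, and the cause of these differences was not tested.

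Leaving out each tumor in turn, where a group of 1 is assumed to vary like the other group, gave 0 to 414 called genes: 0 without 170019 and 0 without 170024 (unadjusted p under 0.05: 1939 and 1414), 9 without 170025, 8 without 3800 and 414 without 3802. From 0 to 1 of the protease and inhibitor genes were called, and their median log2 fold change ran from -0.64 to 0.66. Among the 41 tested members, 9 to 20 had all dFLEx tumors above (22% to 48.8%) and 4 to 12 all below (9.76% to 29.3%). The shares of all tested genes were 15.2% to 36.2% and 13.7% to 34.6%. With 1 KP tumor left out the shares were larger for these genes and for all tested genes. Without 3800, 48.8% of the members lay above and 29.3% below, against 36.2% and 34.6% of all. Without 3802 the shares were 41.5% and 26.8%, against 31.7% and 28.1% of all. The difference between members and all genes was not tested. Of the 46 genes, 7 were below with the length trend removed. The share of all tested genes at those levels is not given here, so that count is not read as a result about these genes.

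Of the 17 genes given in every tumor, 11 kept their sign in all alternatives run. Mmp14 was -0.059 on library totals and -0.075 by upper quartile, where the median of all genes shifted to -0.47 and -0.34, and ran from -0.053 to 1.06 with tumors left out. The other ranges that crossed 0 with tumors left out were -0.32 to 4.61 for Mmp2, -3.24 to 1.04 for Mmp3, -1.17 to 0.66 for Timp1, -1.20 to 0.27 for Timp2 and -1.03 to 3.84 for Timp3. Protein features were not run. Genes near 3 counts a tumor could not show a difference at this depth.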
